A study of Mus musculus with 9 samples.

Results

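Mice irradiated over the abdomen while receiving lycopene were compared here with unirradiated mice that received neither. For 10 days the IR+LYC group had lycopene in corn oil by daily gavage, at a dose of 10 mg/kg. On day 4 its whole abdomen was irradiated with 12 Gy. An IR group had corn oil and the same irradiation; it stands in the same table and was left out of the main fit. The control group had corn oil alone and no irradiation. Intestine was taken at the end of the experiment, after further gavage following irradiation. Each group has 3 libraries of total RNA from mouse intestine, so 6 of the 9 libraries enter the comparison. The labels name neither strain, sex, age nor gut segment, and nothing states that each library is from its own animal, so p-values here measure only the spread between these samples. The 2 groups differ in both irradiation and lycopene, and the effects of the 2 cannot be told apart from this comparison. Of 54532 genes in the table, 14910 had at least 0.5 FPKM (fragments per kilobase of gene, scaled to library size) in at least 3 of the 6 libraries and were tested.

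The lining of the small intestine is renewed from stem cells at the base of crypts, whose daughters divide, migrate up the villus and become absorptive enterocytes. Irradiation damages the dividing crypt cells through DNA breaks and the p53 response, and lymphocytes are among the most radiosensitive cells of the gut wall. Lycopene is the red carotenoid of tomatoes and a scavenger of reactive oxygen. It is taken up by enterocytes with other dietary lipids.

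The 3 IR+LYC libraries were unlike one another. IR+LYC 2 had Spearman correlations of 0.973, 0.957 and 0.959 with the 3 controls, against 0.869 and 0.92 with IR+LYC 1 and IR+LYC 3. On the first principal component, with 69.9% of the variance, the IR+LYC libraries lay at -73.1, 35.5 and -41.3 and the controls at 37.5, 17 and 24.5. IR+LYC 2 was thus on the control side. Genes of gut position differed between libraries within both groups. Fabp6, the ileal bile acid binding protein, was at 93.9, 0.274 and 419 FPKM in IR+LYC, against 0.593, 89.9 and 253 FPKM in control. Ada, an adenosine deaminase that is high in the duodenum, was at 4.51, 270.2 and 5.26 FPKM in IR+LYC, against 54.1, 32.6 and 46.3 FPKM in control. IR+LYC 2 therefore combined the lowest Fabp6 with the highest Ada of all 6 libraries, and control 1 had nearly as little Fabp6. Other genes of gut position were mixed. Of the proximal genes, Adh6a was also highest in IR+LYC 2 (512 FPKM), but Gkn3 was highest in IR+LYC 1 (6.86 FPKM). Ileal Slc10a2 was at 1.96, 1.31 and 1.37 FPKM in IR+LYC, against 2.52, 20.3 and 21.7 FPKM in control. Ileal Slc51b was at 9.73, 89.2 and 35.8 FPKM in IR+LYC, so it was highest where Fabp6 was lowest. Whether the libraries come from the same stretch of gut was not tested, and the main counts are given with and without IR+LYC 2. Recovered reads per library ranged from 17803889 to 22414949, and 1 read on 1 kb was worth 0.0354 (IR+LYC 1) to 0.0656 FPKM (IR+LYC 2). That worth did not follow these totals, so the deposited FPKM were scaled by another quantity, which no source used here names. In bulk tissue, fewer cells of a type and less RNA per cell cannot be told apart.

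With all 6 libraries, 1 of the 14910 genes passed an adjusted p of 0.05 with limma (0.00671%), and it was lower in IR+LYC. No gene passed as higher, while 1667 genes (11.2%) had an unadjusted p under 0.05, 685 of them higher (4.59%) and 982 lower (6.59%). The groups did not overlap at 1330 genes higher in IR+LYC (8.92%) and 1313 genes lower (8.81%). The median log2 difference over all tested genes was -0.01. Without IR+LYC 2, 4555 genes passed (30.5%), 1799 higher (12.1%) and 2756 lower (18.5%). IR+LYC 2 was singled out by its expression, with those values known, so calls without it describe the other 5 libraries and are no independent support. Without IR+LYC 1 there was 1, the immunoglobulin segment Ighv9-2, and without any 1 of the other 4 libraries there was 0. Without both IR+LYC 2 and control 1, 1448 genes passed, 377 higher and 1071 lower. Counts for gene lists are read against these shares of all genes, and a list near them is not set apart. Where list genes are counted as fallen or risen without IR+LYC 2, only those past the adjusted threshold in that fit are counted.

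**Figure D1:**
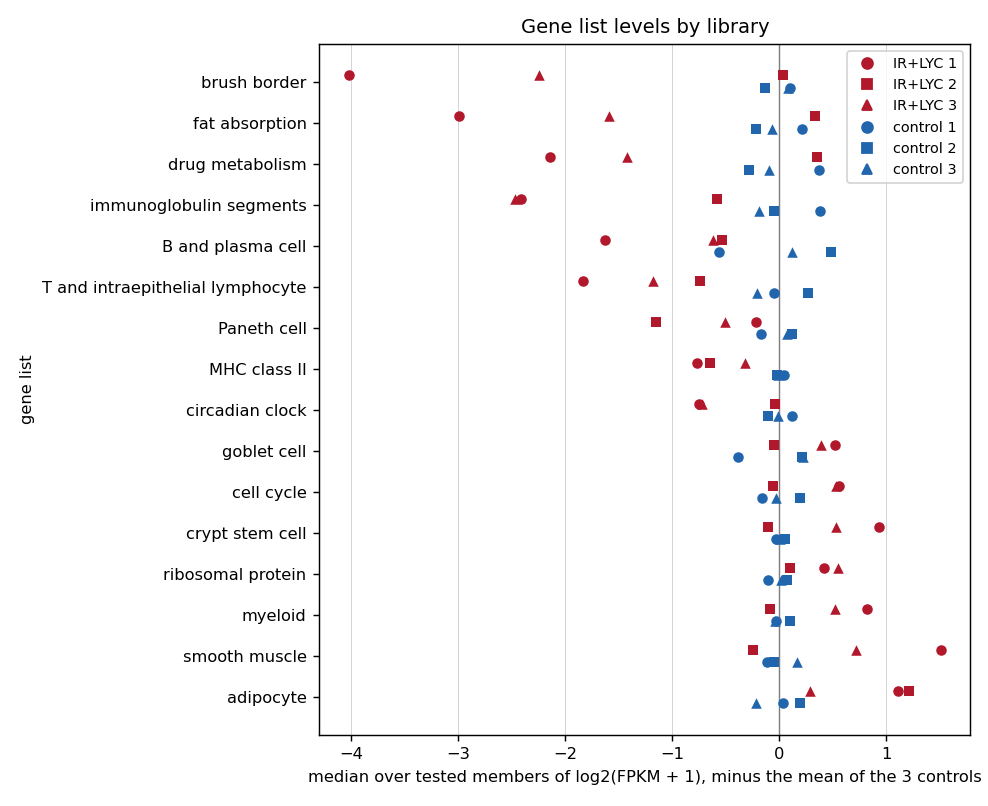
Level of 16 gene lists in each library, as the median over tested members of log2(FPKM + 1) minus the mean of the 3 controls, on a linear axis in log2 units. Red symbols are IR+LYC libraries, blue symbols controls, and the shape gives the replicate number. The brush border score was -4.02, 0.04 and -2.24 in IR+LYC 1 to 3, so that IR+LYC 2 (red square) sits with the controls, while T and intraepithelial lymphocyte, MHC class II and adipocyte genes have all 3 red symbols on 1 side of the controls.

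Mcpt1 was the gene that passed with all 6 libraries. It encodes mouse mast cell protease 1, a chymase of the mast cells that sit inside the gut epithelium. Mcpt1 (ENSMUSG00000022227, chromosome 14, 56017971 to 56020384, GRCm38) was at 0.663, 0.971 and 0.622 FPKM in IR+LYC, against 5.72, 6.92 and 6.71 FPKM in control. All 3 IR+LYC libraries lay below 1 FPKM and every control above 5, so the groups were well apart. These values rest on 19, 15 and 13 reads in IR+LYC, against 102, 123 and 110 reads in control. Mcpt1 fell in all 3 IR+LYC libraries (log2 difference -2.09, SE 0.126, limma adjusted p = 0.0351, on the log2(FPKM + 1) scale of every log2 difference here), and its control mean was 8.57 times its IR+LYC mean. The call is narrow. Over the alternatives its adjusted p ran from 0.0070 to 0.331, and it was lost when any library other than IR+LYC 2 was left out. Without IR+LYC 2 the log2 difference was -2.18 (limma adjusted p = 0.0070). In IR, Mcpt1 was at 0.301, 2.63 and 0.968 FPKM, and the difference of IR+LYC from IR was -0.27 log2 (limma unadjusted p = 0.424).

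The RefSeq promoter window of Mcpt1 (GRCm38.p6, chr14:56017714-56018013, plus strand) is shown because it belongs to that gene. It runs from 250 bases before the start of the transcript to 50 after it, and capitals mark TGTGGT, the core of RUNX factor sites, and TATAAA, the TATA box.
Mcpt1: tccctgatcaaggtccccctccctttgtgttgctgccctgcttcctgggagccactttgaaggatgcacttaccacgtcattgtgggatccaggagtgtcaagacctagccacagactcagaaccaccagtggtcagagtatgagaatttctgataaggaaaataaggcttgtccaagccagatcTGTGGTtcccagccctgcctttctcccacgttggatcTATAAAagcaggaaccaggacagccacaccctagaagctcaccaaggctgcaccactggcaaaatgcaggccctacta
TGTGGT, on either strand, was present in 16.8% of the 32851 promoter windows and TATAAA in 13.6%, and in the Mcpt1 window they stand at letters 186 to 191 and 223 to 228.

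The neighbouring protease Mcpt2 (ENSMUSG00000022226, chromosome 14, 56042041 to 56044642), also of mucosal mast cells, had 0.20, 0.557 and 0.275 FPKM in IR+LYC, against 2.3, 1.93 and 2.16 FPKM in control. Its groups did not overlap (log2 difference -1.23, SE 0.134, limma adjusted p = 0.17), and without IR+LYC 2 it fell as well (log2 difference -1.34, limma adjusted p = 0.00833). Mcpt1 and Mcpt2 are close copies, so reads may be shared between them. Of 13 mast cell genes, a list added after the values were seen, 5 reached the filter and 4 of these were lower without overlap (background 8.81%). The list was drawn up because of Mcpt1 and includes Mcpt1 and Mcpt2, so the count is a description. Il1rl1, the interleukin 33 receptor found on mast cells and some lymphocytes, was at 0.765, 0.59 and 0.31 FPKM in IR+LYC, against 1.61, 1.34 and 1.54 FPKM in control. In IR it was at 1.41, 1.53 and 2.63 FPKM, so IR+LYC lay below both other groups (log2 difference from IR -0.86, limma unadjusted p = 0.00114). Kit, the stem cell factor receptor, is also made by the pacemaker cells of the gut muscle, and it overlapped between groups. Cpa3, a mast cell carboxypeptidase below the filter, had 0.187, 0.26 and 0.16 FPKM in IR+LYC and 0.487, 0.677 and 0.407 FPKM in control. Not every gene of the list was lower. Hdc, which makes histamine, had 0.415, 0.329 and 0.304 FPKM in IR+LYC and 0.205, 0.205 and 0.135 FPKM in control. Tpsb2, a tryptase of connective tissue mast cells, had 0.0327, 0.182 and 0.225 FPKM in IR+LYC and was at 0 in control, and Tpsab1 was at 0 in all 6. The summed FPKM of the 13 genes was 9.12, 5.49 and 7.45 in IR+LYC and 14.4, 17.0 and 16.1 in control. Shares of recovered reads weigh long genes more and do not use the deposited scaling. By share, the list was at 0.0083, 0.00248 and 0.00594% in IR+LYC and 0.00462, 0.00639 and 0.00551% in control. Those shares overlapped (exact two-sided permutation p = 1), so the list as a whole was not lower by that measure. Kit was at 5.73, 1.75 and 4.57 FPKM in IR+LYC and 2.67, 4.26 and 3.78 FPKM in control. Like the shares, Kit was highest in IR+LYC 1 and lowest in IR+LYC 2. Neither the part of Kit in the shares nor that of the scaling was tested.

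**Figure D2:**
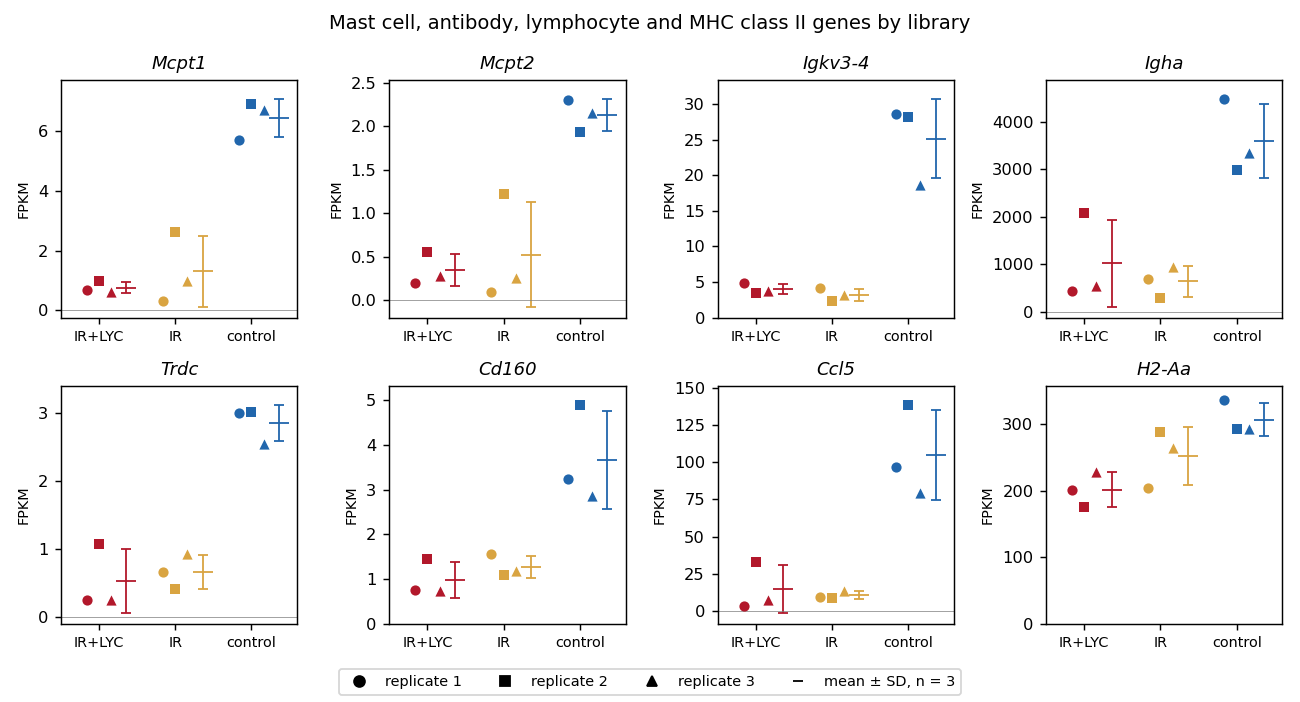
FPKM of 8 immune genes on linear axes that include 0, by group. Symbols are libraries, with the replicate number by shape, and the bars give the mean ± SD of 3 libraries. Mcpt1 lies at 0.622 to 0.971 FPKM in IR+LYC and at 5.72 to 6.92 FPKM in control, and for Igha and Ccl5 the highest IR+LYC symbol is IR+LYC 2.

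Antibody genes were low in all 3 IR+LYC libraries. Immunoglobulin gene segments took 0.28, 0.938 and 0.354% of recovered reads in IR+LYC, against 2.01, 1.5 and 1.51% in control. The groups did not overlap, which gives an exact two-sided permutation p of 0.1, the smallest that 3 against 3 allows. Of 196 tested segments 192 were lower, 91 with an unadjusted p under 0.05 and 67 without overlap (background 6.59% and 8.81%). The median log2 difference was -1.90. No segment passed the adjusted threshold with limma, and 116 did without IR+LYC 2 (background 18.5%). Here IR+LYC 2 was nearer the controls than the others, with list scores of -2.41, -0.58 and -2.47 in IR+LYC 1 to 3. Igha, the heavy chain of the IgA that plasma cells export into the gut lumen, was at 442, 2084 and 541 FPKM in IR+LYC, against 4482, 2990.1 and 3339.9 FPKM in control. A rule that required a small p and groups without overlap named 5 segments, whose values are a description. Igkv3-4, a kappa variable segment (ENSMUSG00000096715, chromosome 6, 70671788 to 70672377), had 4.81, 3.46 and 3.78 FPKM in IR+LYC, against 28.6, 28.2 and 18.7 FPKM in control. It missed the threshold (log2 difference -2.37, SE 0.204, limma adjusted p = 0.0979). Igkv8-21 had 54.5, 46.9 and 46.9 FPKM in IR+LYC, against 238, 201 and 163 FPKM in control. Igkv4-57-1 had 12.0, 10.6 and 6.64 FPKM in IR+LYC, against 66.7, 85.8 and 58.5 FPKM in control. The heavy chain segment Ighv9-2 had 3.33, 0.935 and 0.692 FPKM in IR+LYC, against 22.5, 16.2 and 20.4 FPKM in control, and Ighv1-63 had 0.101, 1.87 and 1.24 FPKM in IR+LYC and 21.1, 13.8 and 10.4 FPKM in control. Igkv3-9 had the smallest unadjusted p of the tested segments (limma 1.88e-05) and passed in 4 alternatives. It had 0, 0 and 0 reads in IR+LYC, against 38, 19 and 26 reads in control. Variable segments are near copies of one another, so which segment a read came from is uncertain.

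Genes of the cells that make antibodies followed. Jchain, which joins IgA into dimers, was at 88.7, 503 and 105 FPKM in IR+LYC, against 1005, 615 and 622 FPKM in control. IR+LYC 2 lay near the controls, and the other 2 libraries lay several times lower. Derl3, of the plasma cell secretory pathway, was at 1.86, 5.07 and 1.46 FPKM in IR+LYC and 7.44, 5.66 and 7.47 FPKM in control, and Tnfrsf17, the plasma cell survival receptor BCMA, at 0.26, 2.82 and 1.13 FPKM in IR+LYC and 4.81, 3.15 and 3.26 FPKM in control. These 3 did not overlap, and each passed without IR+LYC 2 (limma adjusted p = 0.00924 for Jchain, 0.00924 for Derl3 and 0.0174 for Tnfrsf17). Cd79a, part of the B cell receptor, was at 1.21, 4.82 and 14.3 FPKM in IR+LYC and 8.78, 39.0 and 25.6 FPKM in control and overlapped. Of 17 B and plasma cell genes 16 were lower (median log2 -1.11), 3 without overlap (background 8.81%). Without IR+LYC 2, 7 passed as lower (background 18.5%). The lymphoid follicle list had a median of -0.52 over 12 genes, with 0 without overlap.

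T cell and intraepithelial lymphocyte genes were lower throughout. All 23 were lower, 21 of them without overlap and 19 with an unadjusted p under 0.05, where 8.81% and 6.59% of all genes were. The median log2 difference was -1.19, with list scores of -1.83, -0.74 and -1.18 in IR+LYC 1 to 3. None passed with all 6 libraries, and 17 fell without IR+LYC 2 (background 18.5%). Trdc, which encodes the constant part of delta T cell receptor chains (ENSMUSG00000104876, chromosome 14, 54142851 to 54148868), had 0.247, 1.07 and 0.251 FPKM in IR+LYC, against 3.0, 3.01 and 2.54 FPKM in control. Cd160, a receptor of cytotoxic lymphocytes, had 0.75, 1.44 and 0.735 FPKM in IR+LYC, against 3.23, 4.9 and 2.85 FPKM in control. Ctsw, a protease of cytotoxic granules, had 1.84, 5.75 and 2.99 FPKM in IR+LYC, against 11.4, 13.3 and 10.1 FPKM in control. In each of these 3 genes IR+LYC 2 was the highest of its group and still below every control. Ccl5, which draws in further T cells, was at 3.39, 33.0 and 7.08 FPKM in IR+LYC, against 96.8, 139 and 79.6 FPKM in control, and its control mean was 7.25 times its IR+LYC mean. Itgae, the integrin that holds lymphocytes in the epithelium, was at 3.37, 6.02 and 4.05 FPKM in IR+LYC and 10.5, 13.5 and 7.91 FPKM in control. The signalling chain Cd3e was at 0.555, 1.25 and 0.916 FPKM in IR+LYC and 2.28, 3.31 and 2.48 FPKM in control and the kinase Zap70 at 1.8, 2.37 and 2.68 FPKM in IR+LYC and 3.99, 6.48 and 4.38 FPKM in control. With limma the log2 differences were -1.38 (SE 0.219) for Trdc, -1.23 (SE 0.217) for Cd160 and -3.28 (SE 0.736) for Ccl5. Their adjusted p was 0.331, 0.331 and 0.357 with all 6 libraries, and 0.00818, 0.0128 and 0.00845 without IR+LYC 2. Gimap7, a GTPase of lymphocytes named among the 10 lowest p, was at 1.99, 2.29 and 2.09 FPKM in IR+LYC, against 5.31, 7.04 and 4.86 FPKM in control, with little spread in IR+LYC.

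MHC class II molecules present peptides to CD4 T cells and are made by dendritic cells, B cells and, in the ileum, by enterocytes. All 11 genes were lower (median log2 -0.56), 6 without overlap and 5 with an unadjusted p under 0.05 (background 8.81% and 6.59%). Ciita, the transcription factor that switches the family on, was at 3.5, 4.3 and 5.99 FPKM in IR+LYC, against 8.48, 7.56 and 7.13 FPKM in control. H2-Aa was at 201, 175 and 228 FPKM in IR+LYC, against 336, 292 and 292 FPKM in control. H2-Ab1 was at 289, 338 and 396 FPKM in IR+LYC and 534, 499 and 517 FPKM in control, and H2-DMb1, which helps load peptides, at 27.7, 34.5 and 38.2 FPKM in IR+LYC and 59.4, 44.0 and 43.0 FPKM in control. In these 4 genes IR+LYC 3 was the IR+LYC library nearest the controls. H2-Aa was the 1 member past the threshold without IR+LYC 2 (log2 difference -0.52, limma adjusted p = 0.047). H2-Eb1 was at 305, 265 and 396 FPKM in IR+LYC and 408, 432 and 412 FPKM in control, without overlap but with a limma unadjusted p of 0.12.

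RefSeq promoter windows (GRCm38.p6) were found for 8 of the 11 genes, and 3 are shown because class II promoters are known for an X box followed by a Y box. Capitals mark AGNAAC followed directly by NGATG, together an X box core, and ATTGG or its complement CCAAT, the Y box core.
H2-Aa, chr17:34287774-34288073, minus strand: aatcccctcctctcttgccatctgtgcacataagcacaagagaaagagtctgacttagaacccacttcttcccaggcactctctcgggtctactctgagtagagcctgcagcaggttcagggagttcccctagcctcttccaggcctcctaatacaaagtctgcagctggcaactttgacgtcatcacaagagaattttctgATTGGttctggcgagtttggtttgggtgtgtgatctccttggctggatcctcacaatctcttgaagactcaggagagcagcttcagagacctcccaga
H2-Eb1, chr17:34305617-34305916, plus strand: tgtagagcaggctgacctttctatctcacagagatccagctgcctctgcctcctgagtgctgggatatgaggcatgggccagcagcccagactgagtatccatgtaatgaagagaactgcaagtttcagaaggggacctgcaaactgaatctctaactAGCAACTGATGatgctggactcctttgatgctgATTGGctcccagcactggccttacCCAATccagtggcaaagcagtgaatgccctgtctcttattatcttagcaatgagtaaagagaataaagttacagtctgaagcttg
H2-DMb1, chr17:34152941-34153240, plus strand: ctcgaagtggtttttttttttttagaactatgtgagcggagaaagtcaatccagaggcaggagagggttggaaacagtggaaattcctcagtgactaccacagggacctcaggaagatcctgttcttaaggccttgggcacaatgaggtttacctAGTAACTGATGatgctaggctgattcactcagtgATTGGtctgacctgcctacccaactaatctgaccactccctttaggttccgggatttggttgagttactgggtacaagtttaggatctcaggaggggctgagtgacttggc
H2-Eb1 and H2-DMb1 held both, the X box core at letters 159 to 169 and 156 to 166 of the window and the first ATTGG at letters 192 to 196 and 190 to 194. H2-Aa held ATTGG at letters 203 to 207 and no match to the exact X box letters. Looser forms of the X box were not searched, so an unmarked window may still hold one. Searched on both strands, the X box core was in 0.298% of the 32851 windows and in 2 of the 8, and ATTGG in 37.4% of all windows and in 7 of the 8.

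Genes higher in IR+LYC included those of fat cells. Cfd, the complement protease adipsin that adipocytes secrete (ENSMUSG00000061780, chromosome 10, 79890853 to 79892655), was at 164, 160.2 and 122 FPKM in IR+LYC, against 44.4, 52.6 and 47.9 FPKM in control. All IR+LYC libraries lay above 100 FPKM and all controls under 60. Cfd had the smallest p of the higher genes (log2 difference 1.59, SE 0.179, limma adjusted p = 0.176), and without IR+LYC 2 the log2 difference was 1.54 (limma adjusted p = 0.00993). Retn, the adipocyte hormone resistin, was at 7.15, 5.49 and 4.77 FPKM in IR+LYC, against 1.51, 2.27 and 1.76 FPKM in control. Car3, a carbonic anhydrase abundant in fat, was at 77.1, 71.7 and 39.8 FPKM in IR+LYC, against 22.3, 21.6 and 15.3 FPKM in control. Of the lipid droplet genes, Plin1 was at 3.76, 3.71 and 2.04 FPKM in IR+LYC and 1.5, 1.82 and 1.12 FPKM in control. Plin4 was at 5.23, 3.56 and 3.17 FPKM in IR+LYC and 2.23, 2.79 and 2.41 FPKM in control. The lipase Lpl was at 7.55, 8.7 and 4.12 FPKM in IR+LYC and 3.57, 3.82 and 2.36 FPKM in control. For these 6 genes the groups did not overlap, while for Fabp4 and Adipoq they did, since IR+LYC 3 (20.5, 23.4 and 9.67 FPKM Adipoq in IR+LYC 1 to 3) fell inside the control range of 9.22, 12.2 and 6.36 FPKM. Of 9 tested adipocyte genes 8 were higher and 6 did not overlap (background 8.92%), with a median log2 of 0.84. Summed FPKM of all 10 listed genes was 333, 389 and 218 in IR+LYC, against 144, 145 and 119.7 in control, and none of the 10 was at 0 in all 6 libraries. In IR the sum ranged from 111.9 to 332.1. How much adhering fat tissue each sample held was not tested. Thrsp, a regulator of fatty acid synthesis in fat and liver, was at 12.8, 9.65 and 11.8 FPKM in IR+LYC and 6.21, 5.68 and 4.38 FPKM in control without overlap.

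Other genes were named as higher by the same rule, which required groups without overlap, and none of them passed. Hp, the acute-phase protein haptoglobin, was at 28.0, 17.5 and 10.7 FPKM in IR+LYC, against 2.97, 3.94 and 2.89 FPKM in control, and its IR+LYC mean was 5.73 times the control mean. Ddit4, a stress-induced inhibitor of mTOR, was at 52.4, 57.9 and 54.5 FPKM in IR+LYC, against 19.8, 22.0 and 30.5 FPKM in control, with IR+LYC values close together. Prom1, a membrane protein of crypt progenitors, was at 19.8, 16.2 and 14.9 FPKM in IR+LYC, against 8.81, 10.1 and 9.68 FPKM in control. Inf2, a formin that builds actin filaments, was at 5.11, 5.42 and 4.71 FPKM in IR+LYC and 2.61, 3.15 and 2.45 FPKM in control, and Lars2, the mitochondrial leucine tRNA ligase, at 12.5, 13.7 and 12.6 FPKM in IR+LYC and 8.1, 7.78 and 8.8 FPKM in control. The small nucleolar RNA Snora31 had 24, 19 and 17 reads in IR+LYC, against 8, 7 and 4 reads in control. It lies within a host gene, so its reads cannot be told apart from those of the host. The adjusted p was 0.331, 0.331 and 0.331 for Hp, Ddit4 and Prom1 with limma, and without IR+LYC 2 each passed (0.0179, 0.0167 and 0.0186). On the lower side Tle3, a Groucho co-repressor, was at 4.56, 6.19 and 5.18 FPKM in IR+LYC and 10.2, 9.85 and 11.01 FPKM in control. Abca1, the cholesterol efflux pump, was at 4.91, 6.97 and 6.38 FPKM in IR+LYC and 12.9, 15.0 and 11.7 FPKM in control. Rnf208, a ubiquitin ligase, was at 0.667, 1.84 and 1.58 FPKM in IR+LYC and 4.45, 5.41 and 6.43 FPKM in control.

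**Figure D3:**
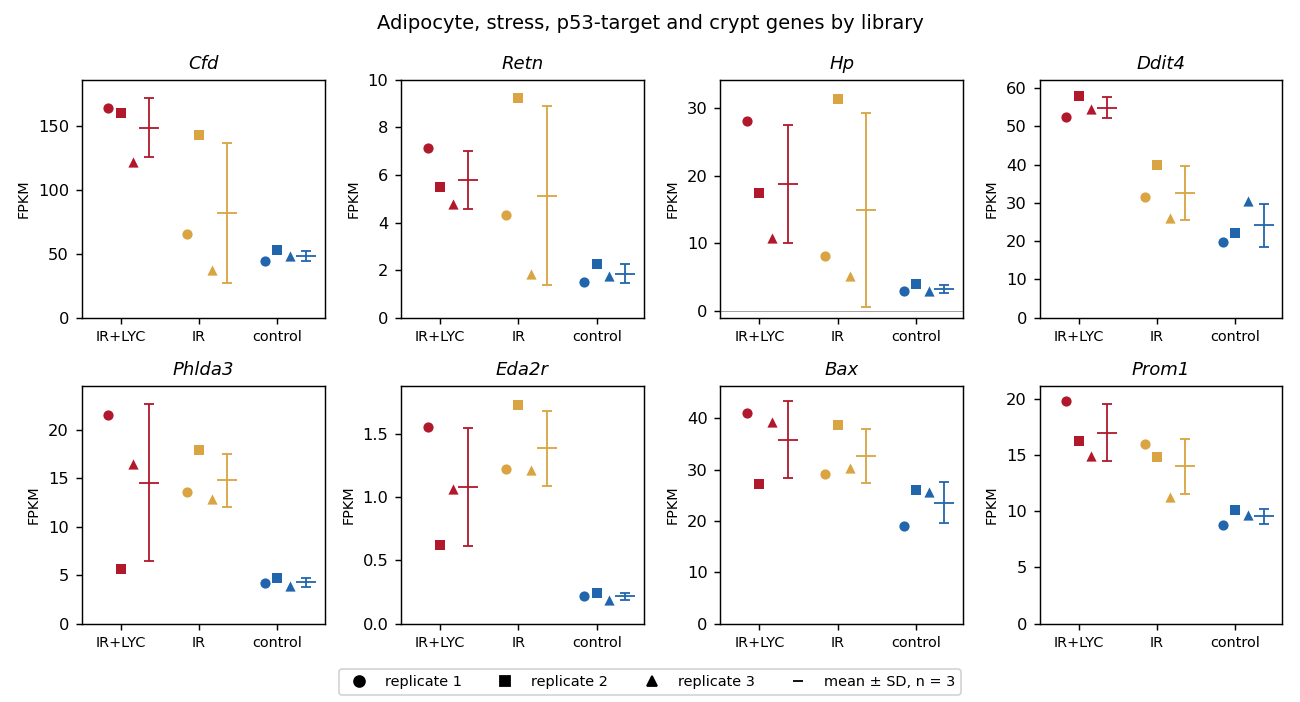
FPKM of 8 genes that were higher in IR+LYC without overlap, on linear axes that include 0, by group. Symbols are libraries and bars the mean ± SD of 3. Cfd lies at 122 to 164 FPKM in IR+LYC and at 44.4 to 52.6 FPKM in control, while Phlda3 shows IR+LYC 2 at 5.64 FPKM, next to the controls.

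Direct p53 targets split. Of 32 genes 20 were higher and 12 lower (median log2 0.09). Without overlap, 7 were higher and 1 lower (background 8.92% and 8.81%). The median turned negative when a mean of 5 FPKM was required. Phlda3, an inhibitor of AKT, was at 21.5, 5.64 and 16.5 FPKM in IR+LYC, against 4.19, 4.75 and 3.89 FPKM in control. IR+LYC 2 was only just above the controls. Eda2r, a TNF receptor family member, was at 1.56, 0.624 and 1.06 FPKM in IR+LYC, against 0.222, 0.242 and 0.189 FPKM in control. Gdf15, a stress hormone, was at 2.35, 0.851 and 1.02 FPKM in IR+LYC and 0.46, 0.339 and 0.30 FPKM in control and Ccng1, a cyclin that feeds back on p53, at 44.7, 34.01 and 31.4 FPKM in IR+LYC and 25.1, 24.0 and 25.6 FPKM in control. In these genes IR+LYC 1 was the highest library. Ddb2, a sensor of damaged bases, was at 2.51, 1.68 and 1.86 FPKM in IR+LYC and 1.39, 1.27 and 1.4 FPKM in control. Bax, which opens the mitochondrial outer membrane in apoptosis, was at 41.0, 27.2 and 39.3 FPKM in IR+LYC, against 19.0, 26.1 and 25.6 FPKM in control (log2 difference 0.58, SE 0.216, limma adjusted p = 0.444). Without IR+LYC 2 Phlda3 rose by 1.91 on the log2 scale (limma adjusted p = 0.00818), and 10 of the 32 targets rose while 6 fell. Of all genes 12.1% rose and 18.5% fell there, so the number that fell is at the background. The cell cycle inhibitor Cdkn1a was at 31.1, 82.8 and 33.9 FPKM in IR+LYC, against 73.4, 64.1 and 75.0 FPKM in control, with IR+LYC 2 the highest of 6. Of the BCL2 family, Bcl2, which blocks apoptosis, was at 2.03, 1.63 and 1.87 FPKM in IR+LYC and 1.38, 1.7 and 1.61 FPKM in control, and Mcl1, another blocker, at 55.2, 123 and 61.6 FPKM in IR+LYC and 119, 98.8 and 118 FPKM in control. Both overlapped, and the 17 genes had a median log2 of -0.16, which turned positive when totals were set equal over genes other than pancreatic, immunoglobulin and mitochondrial ones. DNA repair genes were higher in 18 of 23 (median log2 0.20), 4 without overlap (background 8.92%).

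Genes of proliferation and crypts were higher in IR+LYC 1 and IR+LYC 3 and level with control in IR+LYC 2. The cell cycle list had 23 of 24 genes higher (median log2 0.32), with scores of 0.56, -0.05 and 0.53. Without overlap, 3 were higher and 1 lower (background 8.92% and 8.81%). Aurka, a kinase of the mitotic spindle, had 15.2, 12.0 and 15.9 FPKM in IR+LYC and 8.13, 11.3 and 10.8 FPKM in control, and Birc5, the mitotic survivin, at 12.1, 9.4 and 12.4 FPKM in IR+LYC and 7.79, 9.17 and 8.18 FPKM in control. Mki67, the standard proliferation marker, was at 22.0, 17.8 and 22.4 FPKM in IR+LYC, against 16.8, 20.7 and 16.7 FPKM in control and overlapped. Without IR+LYC 2, 14 cell cycle genes rose (background 12.1%). Among 18 crypt stem cell genes 16 were higher (median log2 0.47, scores 0.94, -0.11 and 0.53). Only 1 was higher without overlap, which is not above the background of 8.92%, and 12 rose without IR+LYC 2 (background 12.1%). Olfm4, a secreted marker of crypt base stem cells, was at 567, 262 and 536 FPKM in IR+LYC, against 298, 282 and 253 FPKM in control. Lgr5, the R-spondin receptor that defines these cells, was at 1.96, 0.601 and 1.32 FPKM in IR+LYC, against 1.59, 1.74 and 1.52 FPKM in control. Unlike Olfm4 it was above the controls in IR+LYC 1 alone, and its log2 difference without IR+LYC 2 was 0.0027 (limma adjusted p = 0.989). Smoc2, another stem cell marker, was at 27.2, 11.8 and 19.96 FPKM in IR+LYC and 11.8, 12.1 and 12.1 FPKM in control. Of 15 genes of regenerating epithelium 9 were higher (median log2 0.40), 2 without overlap (background 8.92%). Anxa3, a membrane-binding annexin, had 7.41, 3.59 and 4.64 FPKM in IR+LYC and 2.47, 2.5 and 2.8 FPKM in control.

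Paneth cells secrete antimicrobial peptides at the crypt base, and most of their listed genes were lower. Of 18 genes 17 were lower, 8 without overlap (background 8.81%). The median log2 was -0.71, with scores of -0.22, -1.15 and -0.51, and here IR+LYC 2 was the lowest library. Summed FPKM of the list overlapped, at 45080, 19130 and 37230 in IR+LYC, against 44250, 57430 and 58260 in control. Defa5, an alpha-defensin, was at 78.7, 31.1 and 62.7 FPKM in IR+LYC, against 162, 197 and 184 FPKM in control. Mptx2, a pentraxin of Paneth cells, was at 488, 463 and 301 FPKM in IR+LYC, against 807, 869 and 777 FPKM in control. Defa26 was at 172, 113 and 139.5 FPKM in IR+LYC and 223, 247 and 253 FPKM in control and Defa23 at 334, 324 and 298 FPKM in IR+LYC and 602, 638 and 499 FPKM in control. Their groups did not overlap, and these 4 genes fell without IR+LYC 2 (limma adjusted p = 0.0112, 0.0256, 0.0321 and 0.0212, in that order). Ang4, an antimicrobial ribonuclease, was at 1069, 458 and 764 FPKM in IR+LYC and 1174, 1472 and 1675 FPKM in control. Defa22 was at 5683, 568 and 4122 FPKM in IR+LYC, against 5475, 7221 and 8004 FPKM in control, so IR+LYC 2 was far below the other 5 libraries. Lyz1, Paneth cell lysozyme, was at 7946, 3227 and 7144 FPKM in IR+LYC, against 7689.8, 9218 and 9179 FPKM in control and overlapped. Defensins are near copies, so their reads may be shared.

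**Figure D4:**
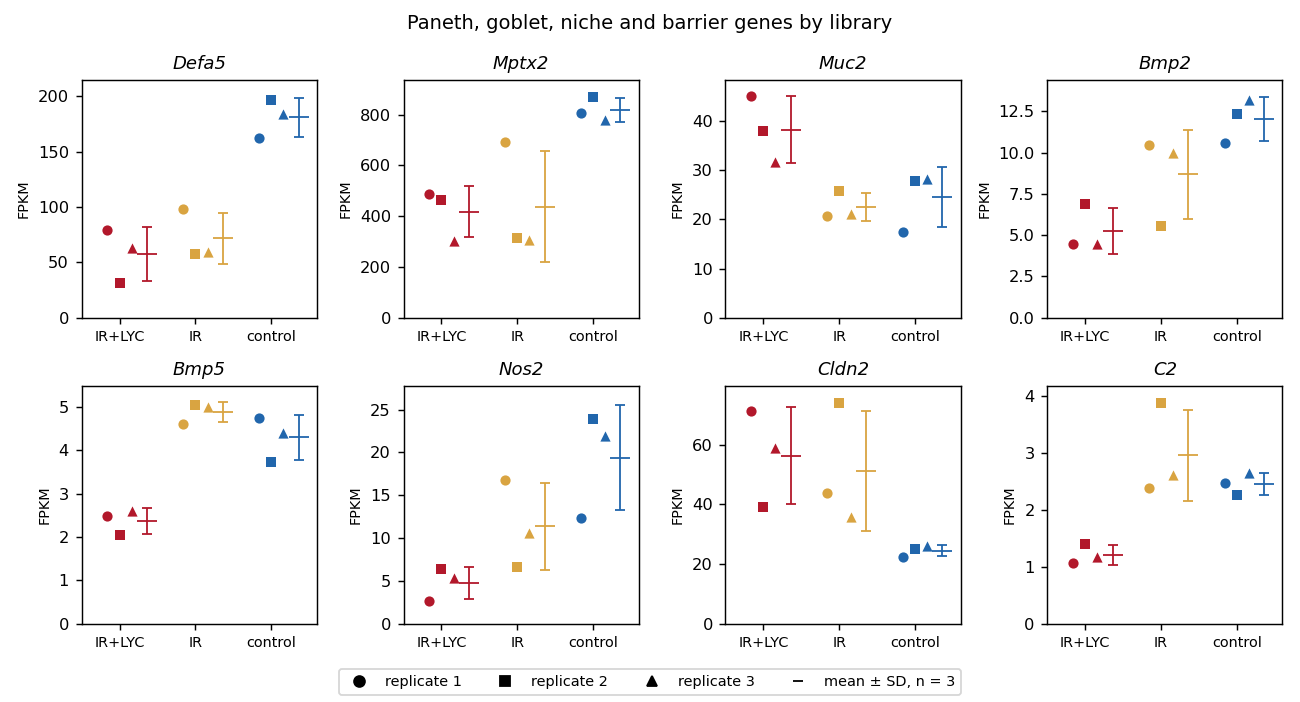
FPKM of 8 genes of Paneth and goblet cells, stromal niche and barrier on linear axes that include 0, by group. Symbols are libraries and bars the mean ± SD of 3. Defa5 lies at 31.1 to 78.7 FPKM in IR+LYC and at 162 to 197 FPKM in control, and Bmp5 at 2.04 to 2.61 FPKM in IR+LYC, 4.61 to 5.03 FPKM in IR and 3.73 to 4.74 FPKM in control.

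Of 17 goblet cell genes 14 were higher (median log2 0.35), but only 2 did not overlap, a share close to the 8.92% of all genes. Muc2, the gel-forming mucin of the mucus layer, was at 45.2, 37.9 and 31.6 FPKM in IR+LYC, against 17.4, 27.9 and 28.2 FPKM in control, without overlap. Klk1, a kallikrein, was at 54.6, 45.4 and 52.8 FPKM in IR+LYC and 26.7, 36.8 and 41.9 FPKM in control. Tuft cells sense luminal parasites, and 10 of 12 of their genes were lower (median log2 -0.18). Rgs13, a regulator of G protein signals, was at 1.07, 3.05 and 0.997 FPKM in IR+LYC and 3.19, 3.2 and 4.37 FPKM in control, and Pou2f3, the factor that specifies the lineage, at 0.286, 0.531 and 0.377 FPKM in IR+LYC and 0.736, 0.646 and 0.62 FPKM in control, both without overlap. Alox5ap, which is also made by myeloid cells, was higher at 4.19, 2.96 and 2.67 FPKM in IR+LYC and 1.92, 1.97 and 2.66 FPKM in control. Hormone genes had 9 higher and 8 lower of 17. Cck, the hormone cholecystokinin, was at 11.9, 20.3 and 12.9 FPKM in IR+LYC and 10.5, 8.87 and 8.57 FPKM in control with IR+LYC 2 the highest. Neurog3, the factor of endocrine precursors, was at 1.42, 1.02 and 1.16 FPKM in IR+LYC and 0.849, 0.852 and 0.554 FPKM in control, and Chga, a granule protein, at 18.8, 27.4 and 26.0 FPKM in IR+LYC and 28.9, 32.1 and 29.5 FPKM in control.

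Enterocyte genes had large differences, which were set by IR+LYC 1 and IR+LYC 3. Brush border hydrolases and transporters were lower in all 24 genes (median log2 -2.07), 8 without overlap and 6 with an unadjusted p under 0.05 (background 8.81% and 6.59%). Without IR+LYC 2 the median was -2.97 and all 24 passed as lower (background 18.5%). The brush border score was among the values by which IR+LYC 2 stood apart, so that count follows in part from leaving it out. Slc15a1, the peptide transporter PEPT1, was at 3.12, 120.1 and 18.6 FPKM in IR+LYC, against 161, 158 and 179 FPKM in control. Anpep, aminopeptidase N, was at 89.2, 1626 and 374 FPKM in IR+LYC, against 1807, 1867 and 2194 FPKM in control. Alpi, the intestinal alkaline phosphatase of mature enterocytes, was at 17.5, 403 and 85.2 FPKM in IR+LYC, against 296, 225 and 281 FPKM in control. In these 3 genes IR+LYC 2 was close to or above the controls, and IR+LYC 1 was far below. Xpnpep2, Mep1a and Naaladl1, all peptidases of that membrane, had IR+LYC 2 well below the controls too. Xpnpep2 was at 4.79, 28.0 and 26.7 FPKM in IR+LYC, against 81.5, 101 and 136 FPKM in control. Naaladl1 was at 94.9, 182 and 291 FPKM in IR+LYC, against 555, 663 and 918 FPKM in control. Mep1a was at 6.93, 29.3 and 40.8 FPKM in IR+LYC, against 78.3, 114 and 222 FPKM in control. Smooth muscle genes were higher in IR+LYC 1 and IR+LYC 3, with list scores of 1.51, -0.24 and 0.72 in IR+LYC 1 to 3. The part that the layers sampled play in the brush border values was not tested.

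**Figure D5:**
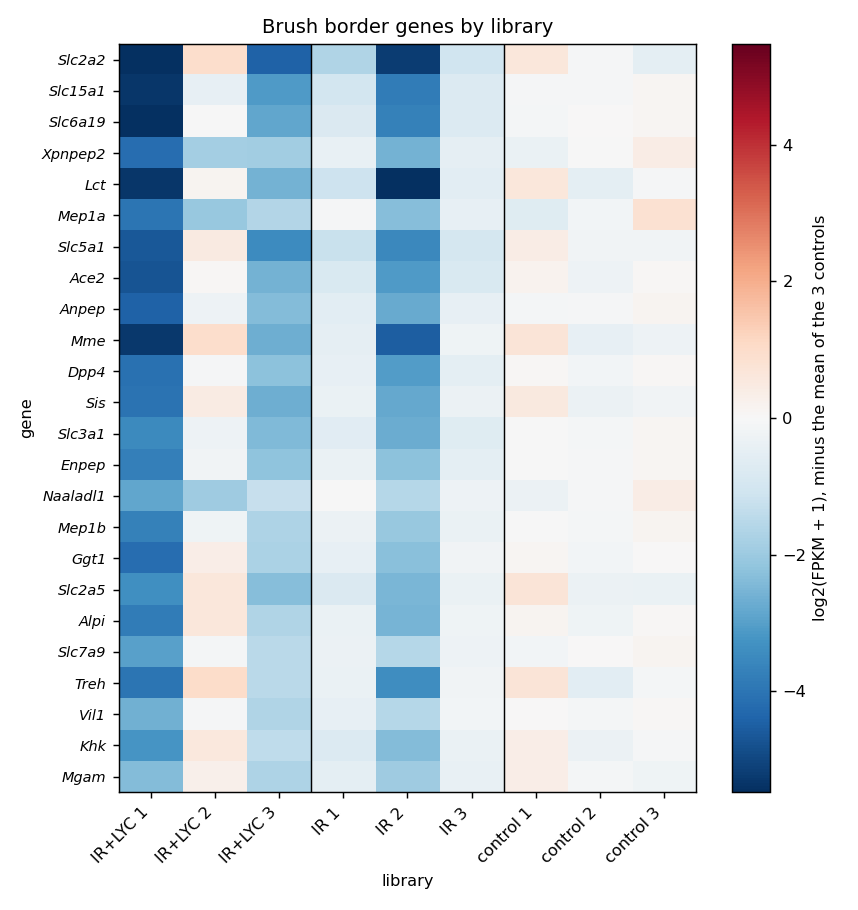
Level of the 24 brush border genes in all 9 libraries, as log2(FPKM + 1) minus the mean of the 3 controls, with blue for lower and red for higher. Genes run from the lowest to the highest IR+LYC minus control difference, and libraries are grouped as IR+LYC, IR and control. IR+LYC 1, IR+LYC 3 and IR 2 are blue at all 24 genes, and IR+LYC 2 is blue at Naaladl1, Xpnpep2 and Mep1a and pale or red at the others.

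Fat absorption genes showed the same split between libraries, with 20 of 22 lower (median log2 -1.43, scores -2.99, 0.33 and -1.59) and 18 fallen without IR+LYC 2 (background 18.5%). Fabp2, the enterocyte fatty acid binding protein, was at 521, 5416 and 2873 FPKM in IR+LYC, against 9719, 9385 and 9652 FPKM in control. Npc1l1, the cholesterol importer, was at 19.2, 149 and 55.3 FPKM in IR+LYC and 203, 173 and 237 FPKM in control. Drug-metabolizing enzymes and pumps were lower in 29 of 30 (median log2 -1.19), 5 without overlap (background 8.81%), and 23 fell without IR+LYC 2 (background 18.5%). Abcb1a, the P-glycoprotein pump, was at 29.8, 90.5 and 37.3 FPKM in IR+LYC, against 145, 109.9 and 127 FPKM in control. Cyp2c55 was at 0.958, 10.9 and 2.51 FPKM in IR+LYC and 27.6, 14.1 and 12.6 FPKM in control. Cyp3a11, the main drug-oxidizing P450 of the mouse gut, was at 0.201, 244 and 6.87 FPKM in IR+LYC, against 364, 90.1 and 139 FPKM in control, and Cyp2b10 at 1.07, 171 and 13.1 FPKM in IR+LYC, against 208, 86.3 and 128 FPKM in control. IR+LYC 2 was inside the control range for both, while IR+LYC 1 and IR+LYC 3 were far below it. Klf4 and Maf, factors of mature enterocytes, were lower without overlap. Klf4 was at 15.0, 73.3 and 19.8 FPKM in IR+LYC, against 107, 86.4 and 112 FPKM in control and Maf at 5.54, 31.9 and 9.5 FPKM in IR+LYC and 38.6, 38.3 and 41.8 FPKM in control. The ileal bile acid list was lower in 4 of its 5 tested genes (median log2 -1.42). The exception was Fabp6, with a log2 difference of 0.156.

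Genes that handle carotenoids and retinoids were also listed, and whether the lycopene given altered any of them was not tested. Bco1, the enzyme that cleaves carotenoids to retinal, was at 1.25, 18.8 and 0.458 FPKM in IR+LYC, against 13.2, 19.3 and 16.8 FPKM in control. IR+LYC 2 was level with the controls, the other 2 libraries were far lower, and in IR Bco1 was at 1.6, 0.874 and 1.18 FPKM. The difference was -2.10 log2 (SE 0.949, limma adjusted p = 0.452), and without IR+LYC 2 Bco1 fell (log2 difference -3.25, limma adjusted p = 0.00818). Scarb1, a receptor that takes up carotenoids, was at 2.71, 2.68 and 2.3 FPKM in IR+LYC, against 2.11, 2.09 and 2.15 FPKM in control, which is a small difference without overlap (log2 difference 0.19, SE 0.0972, limma adjusted p = 0.463). Rbp4 and Ttr, the plasma carriers of retinol, were higher without overlap. Rbp4 was at 4.66, 5.11 and 5.02 FPKM in IR+LYC, against 3.64, 3.08 and 3.1 FPKM in control and Ttr at 6.27, 2.42 and 5.5 FPKM in IR+LYC and 1.59, 1.87 and 1.93 FPKM in control. Rara, a retinoic acid receptor, was lower at 6.53, 9.02 and 7.16 FPKM in IR+LYC and 10.4, 9.72 and 10.9 FPKM in control. Of 22 carotenoid and retinoid genes 15 were lower (median log2 -0.21). That direction turned when the deposited scaling was replaced by totals of recovered reads without pancreatic, immunoglobulin and mitochondrial genes. The antioxidant enzymes under NRF2 were divided, 7 higher and 13 lower. Hmox1, heme oxygenase, was at 5.62, 2.21 and 4.24 FPKM in IR+LYC, against 2.05, 2.08 and 2.08 FPKM in control. Me1, malic enzyme, was at 16.6, 10.0 and 16.6 FPKM in IR+LYC and 9.31, 6.88 and 5.77 FPKM in control, both higher without overlap. Srxn1, which reactivates peroxiredoxins, was lower at 25.5, 96.4 and 44.3 FPKM in IR+LYC and 98.5, 118 and 125 FPKM in control. Nqo1, a quinone reductase, was at 19.6, 24.4 and 16.6 FPKM in IR+LYC, against 22.3, 18.8 and 16.3 FPKM in control and overlapped.

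The stroma of the crypts sends WNT ligands, which keep stem cells dividing, and BMP ligands, which stop them as they leave the crypt. Of 16 such genes 11 were lower, 6 without overlap (background 8.81%). Bmp2, made by villus stroma and epithelium, was at 4.46, 6.89 and 4.45 FPKM in IR+LYC, against 10.6, 12.4 and 13.2 FPKM in control. Bmp5 was at 2.49, 2.04 and 2.61 FPKM in IR+LYC, against 4.74, 3.73 and 4.41 FPKM in control. Bmp4 was at 10.0, 6.37 and 8.23 FPKM in IR+LYC and 12.9, 10.98 and 12.1 FPKM in control. For these 3 BMP ligands every IR+LYC library lay below every control. Wnt4 was at 0.70, 1.91 and 0.845 FPKM in IR+LYC, against 2.49, 3.19 and 3.02 FPKM in control. Wnt2b, a WNT of the mesenchyme, was at 3.67, 2.52 and 3.2 FPKM in IR+LYC and 4.14, 3.95 and 5.05 FPKM in control, and Foxl1, a factor of the telocytes under the epithelium, at 1.14, 0.728 and 1.18 FPKM in IR+LYC and 1.39, 1.26 and 1.23 FPKM in control. Bmp5, Bmp4, Wnt2b and Foxl1 were lowest in IR+LYC 2, and within IR+LYC Bmp2 and Wnt4 were highest there. Bmp2, Bmp5 and Wnt4 fell without IR+LYC 2 (limma adjusted p = 0.00924, 0.0212 and 0.00974), and with all 6 libraries they were at 0.331, 0.337 and 0.391.

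Smooth muscle genes were higher in all 16 (median log2 0.63), but only 1 did not overlap, which is not above the background of 8.92%. That was Cnn1, the contractile calponin, at 137, 36.8 and 90.9 FPKM in IR+LYC, against 27.8, 33.0 and 35.5 FPKM in control. Actg2, the actin of gut muscle, was at 825, 132 and 529 FPKM in IR+LYC, against 108, 126 and 139 FPKM in control, with IR+LYC 2 inside the control range. Des, the muscle filament desmin, was at 266, 67.5 and 193 FPKM in IR+LYC and 52.3, 58.7 and 68.1 FPKM in control. Without IR+LYC 2, 14 of the list rose (background 12.1%), Actg2 by 2.41 on the log2 scale (limma adjusted p = 0.00924). Matrix genes were higher in 16 of 21 (median log2 0.28), a direction that turned without IR+LYC 1. Loxl2, which crosslinks collagen, was at 5.77, 3.81 and 4.77 FPKM in IR+LYC and 2.42, 3.25 and 3.01 FPKM in control and did not overlap. Nerve and glia genes were higher in 12 of 14 (median log2 0.24) with 0 without overlap (background 8.92%). The endothelial and TGF-beta lists had medians of 0.02 and -0.04, and their sign turned in 3 alternatives each.

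Myeloid genes were higher in 13 of 17 (median log2 0.41), with 2 higher and 2 lower without overlap (background 8.92% and 8.81%). Cd14, the co-receptor for endotoxin on monocytes, was at 13.3, 8.85 and 11.8 FPKM in IR+LYC, against 5.57, 6.27 and 5.54 FPKM in control. Ccr2, the receptor that recruits monocytes, was at 2.94, 1.52 and 1.8 FPKM in IR+LYC, against 0.622, 1.037 and 0.869 FPKM in control. Both were high in all 3 IR+LYC libraries. Csf1r, the receptor that keeps resident macrophages, was lower at 21.2, 15.6 and 17.8 FPKM in IR+LYC and 22.1, 22.5 and 22.4 FPKM in control. Of the complement genes, C2 was lower at 1.07, 1.41 and 1.17 FPKM in IR+LYC, against 2.47, 2.27 and 2.65 FPKM in control, while Cfd was higher as described, and the list's median was -0.01 with a sign that turned in several alternatives. Nos2, the inducible nitric oxide synthase, was at 2.7, 6.35 and 5.31 FPKM in IR+LYC, against 12.4, 23.9 and 21.9 FPKM in control. The acute-phase protein Saa3 was at 1.13, 0.705 and 0.652 FPKM in IR+LYC and 0.414, 0.416 and 0.379 FPKM in control. Saa1 went the other way, with a mean of 0.334 FPKM in IR+LYC and 1.02 FPKM in control (log2 difference -0.583, limma unadjusted p = 0.162). Interferon genes were lower in 20 of 25 type I targets (median log2 -0.32) and 18 of 20 interferon gamma targets (median log2 -0.19, a sign that turned under the rescaling). Without overlap, 0 type I targets were lower and 1 higher, and 2 interferon gamma targets were lower, a share near the 8.81% of all genes. Isg15, an interferon-induced ubiquitin-like protein, was at 13.2, 33.9 and 16.6 FPKM in IR+LYC and 39.2, 35.4 and 27.3 FPKM in control and overlapped. Cd274, the checkpoint ligand PD-L1, was at 2.57, 2.5 and 2.72 FPKM in IR+LYC and 3.86, 3.51 and 4.18 FPKM in control, and Socs1, a brake on cytokine signals, at 0.998, 1.4 and 1.75 FPKM in IR+LYC and 2.03, 2.25 and 2.13 FPKM in control, both without overlap. The cytokine Tnf was at 1.77, 0.801 and 0.237 FPKM in IR+LYC, against 0.59, 0.383 and 0.528 FPKM in control and overlapped, and Il6 was below the filter.

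Among junction genes, 19 of 23 were lower (median log2 -0.32), 4 without overlap (background 8.81%). Cldn2, a claudin that forms cation and water pores in crypts, stood on the other side at 71.2, 39.0 and 58.8 FPKM in IR+LYC, against 22.4, 25.1 and 26.2 FPKM in control. It was the only one of the list higher without overlap (background 8.92%). Its log2 difference was 1.13 (SE 0.238, limma adjusted p = 0.356), and without IR+LYC 2 it rose by 1.37 on the log2 scale (limma adjusted p = 0.00924). Tjp1, the scaffold ZO-1, was at 12.1, 16.2 and 11.9 FPKM in IR+LYC, against 18.3, 16.1 and 18.8 FPKM in control and overlapped at 1 value. Iron genes were 8 higher and 8 lower. Tfrc, the transferrin receptor, was at 30.2, 35.3 and 30.3 FPKM in IR+LYC and 28.9, 18.3 and 15.3 FPKM in control, and Steap1, a metal reductase, at 5.19, 3.1 and 5.43 FPKM in IR+LYC and 2.35, 2.98 and 2.2 FPKM in control, both higher without overlap. IR+LYC 2 was the highest library for Tfrc and the lowest of its group for Steap1. Car9, a carbonic anhydrase induced by low oxygen, was at 20.9, 28.2 and 21.05 FPKM in IR+LYC and 16.4, 15.4 and 13.7 FPKM in control. Clock genes were lower in 16 of 18 (median log2 -0.50). Per2 was lower at 7.29, 12.4 and 7.31 FPKM in IR+LYC and 14.3, 12.5 and 12.4 FPKM in control, and Nr1d1, a repressor with a steep daily rhythm, was at 2.6, 12.8 and 2.32 FPKM in IR+LYC and 12.4, 22.2 and 10.8 FPKM in control. The hour at which tissue was taken is not given in the labels.

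Ribosomal protein genes were higher in 74 of 75, by a small median of 0.35 log2, and 38 did not overlap (background 8.92%). Rpl7a was at 226, 143 and 230.1 FPKM in IR+LYC, against 92.0, 87.1 and 75.7 FPKM in control. Many of these genes have near-identical pseudogene copies and host small nucleolar RNAs, so their reads are uncertain. Their share of recovered reads, which does not use the deposited scaling, was 5.69, 3.01 and 5.68% in IR+LYC, against 2.68, 3.35 and 3.02% in control (exact two-sided permutation p = 0.3). Mitochondrially encoded genes took 3.67, 4.67 and 4.66% in IR+LYC and 4, 3.28 and 3.31% in control (exact p = 0.2). The nuclear genes of oxidative phosphorylation had a median log2 of -0.03. Pancreatic enzyme genes took 0.0174, 0.00767 and 0.0151% of reads in IR+LYC and 0.0118, 0.0143 and 0.0153% in control, with Prss1, Cela3b, Amy2a5 and Cel at 0 in all 6. Red cell genes summed to 30.9, 232 and 43.5 FPKM in IR+LYC and 40.8, 45.3 and 70.8 FPKM in control, so IR+LYC 2 held the most.

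Several further genes were named in the fit without IR+LYC 2. Ccl8, a chemokine for monocytes, was at 19.0, 2.7 and 18.8 FPKM in IR+LYC, against 1.78, 3.24 and 1.69 FPKM in control, and without IR+LYC 2 it rose by 2.65 on the log2 scale (limma adjusted p = 0.00833). Mboat1, an acyltransferase of membrane lipids, was at 13.5, 1.83 and 7.89 FPKM in IR+LYC and 0.854, 2.09 and 2.09 FPKM in control, and Gal, the neuropeptide galanin, at 41.5, 4.33 and 37.5 FPKM in IR+LYC and 7.58, 12.5 and 11.9 FPKM in control. R3hdml was at 7.4, 0.60 and 2.93 FPKM in IR+LYC and 0.104, 0.625 and 0.395 FPKM in control. In all 4 genes IR+LYC 2 was below at least 1 control. On the lower side Clca4a, a calcium-activated chloride channel regulator, was at 1.53, 256 and 3.31 FPKM in IR+LYC, against 175, 139 and 204 FPKM in control. Slc2a2, the glucose exporter GLUT2, was at 0.461, 124 and 2.02 FPKM in IR+LYC, against 98.7, 60.4 and 43.5 FPKM in control, and Slc5a12, a lactate transporter, at 0.418, 77.9 and 6.67 FPKM in IR+LYC, against 97.0, 59.3 and 73.5 FPKM in control. For these 3 genes IR+LYC 2 was within or above the control range. Medians of the lists not described above lay between -0.71 log2 for proximal segment genes and -0.07 for hypoxia genes. Those were -0.54 for colon, -0.30 for epithelial factors, -0.22 for NF-kB, -0.18 for PPARA, -0.17 for protein folding stress, -0.16 for antimicrobial, -0.10 for cholesterol and -0.07 for NADPH oxidase genes. The medians for PPARA, protein folding stress, antimicrobial, cholesterol, NADPH oxidase and hypoxia changed sign in at least 1 alternative.

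When IR+LYC 2 was left out, 12.1% of all genes passed as higher and 18.5% as lower, against which the counts that follow stand. The adipocyte genes had a median log2 difference of 0.66 (3 rose and 1 fell), MHC class II -0.52 (1 of 11 fell, a share below the background) and Paneth cells -0.42 (4 of 18 fell and 1 rose, close to it). Goblet cells had 0.44 (4 rose and 1 fell), tuft cells -0.33 (3 fell) and hormone genes 0.02 (4 rose and 1 fell). Myeloid genes had 0.63 (12 rose and 1 fell), matrix 0.63 (9 rose) and DNA repair 0.30 (7 rose and 1 fell). Type I interferon targets had -0.50 (13 fell), junctions -0.47 (11 fell and 1 rose), the clock -0.76 (10 fell) and ribosomal proteins 0.49 (36 rose). The WNT and BMP niche list turned to 0.02, with 3 fallen and 2 risen.

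In 1 model of all 9 libraries, 0 of the 14910 genes passed for IR+LYC minus IR with limma, and 644 (4.32%) had an unadjusted p under 0.05. For 4 genes described above, picked here after their values were seen, that contrast gave 0.76 log2 for Ddit4 (limma unadjusted p = 0.00496), -0.80 for Bmp5 (6.6e-05), -0.82 for C2 (0.000415) and -1.07 for Nos2 (0.0237). Bmp5 was at 4.61, 5.03 and 5.0 FPKM in IR and C2 at 2.39, 3.88 and 2.62 FPKM, so every IR+LYC library of these 2 genes lay below every IR library. Trdc gave -0.16 (0.469), Ccl5 -0.08 (0.904) and Igkv3-4 0.27 (0.244). These 3 were low in IR too, at 0.658, 0.414 and 0.917 FPKM for Trdc, 9.43, 8.38 and 13.6 for Ccl5 and 4.1, 2.35 and 3.18 for Igkv3-4. A p that misses the threshold does not show that the 2 irradiated groups were alike.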

How the data were processed

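Total RNA of mouse intestine was sequenced, and the deposited table gives FPKM per gene for 9 libraries. HISAT2 2.0.5 and fastp are named in the submitters' processing notes; the genome build, the counting tool and its use of strand are not given in the sources used here. Gene IDs numbered 54532, and 54409 are in GENCODE M21 (GRCm38), 53499 at the same position, and gene coordinates are printed only for such genes. Promoter windows carry RefSeq's own coordinates. The authors' FPKM held whole reads for 202261 of 202261 values tested, within 0.01 read, so depth could be recovered and reads per library computed.

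The deposited FPKM were turned here into log2(FPKM + 1), so that fold changes of low genes are understated. The 3 IR+LYC and 3 control libraries were compared with limma 3.58.1 in R 4.3.3, a moderated test with a mean-variance trend and Benjamini-Hochberg adjustment at 0.05, over the 14910 genes with 0.5 FPKM in 3 libraries. The script was tested on simulated data, and alternatives changed the pseudocount, filter, scaling, model and libraries. Lists are described by counts and medians, and shares of reads by an exact permutation test. Genes and lists were chosen with earlier results of these data known. The genes named are those without overlap, with a group mean of at least 5 FPKM and the smallest p, 10 per direction and 8 per direction without IR+LYC 2, up to 4 per list, and a set of standard markers, with predicted genes left out. A few others, and the mast cell list, were added after their values were seen. Same-numbered libraries are not described as paired, and their deviations correlated at -0.311, -0.367 and 0.207, so no pairing was used.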

Additional observations from a re-analysis of the deposited data

How the results depend on the processing

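Mcpt1 kept its direction in the 15 alternatives that gave it a new value and its call in 4 of them, and it also passed with a minimum log2 difference of 1 required. The number of genes past the limma threshold was 2 with a pseudocount of 0.1 (Mcpt1 and Igkv3-9), 3 in the fit of all 3 groups (Igkv3-4, Igkv3-9 and Mir7061, all lower), 1 with median-ratio scaling and 1 with a minimum log2 difference of 1. It was 0 without a filter, with a mean of 5 FPKM required, without the trend, with limma-voom on recovered reads, and after rescaling with pancreatic, immunoglobulin and mitochondrial genes left out. At an unadjusted p under 0.05 those 5 gave 2097, 869, 1661, 1783 and 1553 genes. The rescaling moved the median of all genes to 0.17 log2. It replaced the deposited scaling by totals of recovered reads and also left those genes out of the totals. Which of these changes moved the median was not tested. A replicate block gave 0 genes (991 unadjusted), with Mcpt1 at a limma adjusted p of 0.331. Leaving out 1 library gave 0 to 4555 genes, 0 to 1799 higher and 0 to 2756 lower, with 4555 only without IR+LYC 2. Without both IR+LYC 2 and control 1, chosen after seeing the data, 1448 genes passed, 377 higher and 1071 lower. The cause was not tested.

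Directions turned for 4 named genes. With 1 library left out, the log2 difference of Fabp6 ran from -2.04 (without control 1) to 2.59, with -0.523 without IR+LYC 1 and -1.60 without IR+LYC 3. A pseudocount of 0.1 gave Fabp6 -0.0328. Lgr5 ran from -0.442 to 0.0027 (without IR+LYC 2). Nqo1 ran from -0.0701 (without IR+LYC 2) to 0.195, with -0.0357 without control 3. Tnf ran from -0.0048 (without IR+LYC 1) to 0.577. The pancreatic share of reads, -0.000373 percentage points in IR+LYC minus control, ran from -0.00236 to 0.00248 (without IR+LYC 2), with 0.000375 without control 3 and 0.00149 without both IR+LYC 2 and control 1. With 3 libraries per group, and low genes resting on few reads, calls near the threshold depend on single libraries.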
